A study of Mus musculus with 36 samples.

Results

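Hippocampal RNA of the inbred mouse strains A/J and DBA/2J was compared. The comparison took 12 of the 36 libraries of a study of 6 strains, namely the 6 libraries of A/J and the 6 of DBA/2J, and weighted males and females equally. Each strain had 3 male and 3 female libraries, each made from the whole hippocampus of both sides of 1 animal. The A/J males were 62 days old and the A/J females 63, and the DBA/2J mice of both sexes were 62 days old. Both strains came from the Jackson Laboratory, were group housed under the same light cycle and received no treatment. Sex went with 1 day of age in A/J and, in both strains, with the mix of spike-in RNA added to the library.

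The hippocampus holds excitatory principal neurons in the dentate gyrus and the CA fields, a smaller and diverse set of inhibitory interneurons, and glial and vascular cells. It is the structure most often studied for spatial memory and seizure spread. Inbred strains are homozygous across the genome, so a difference in RNA level between them can come from variants in the gene itself, from variants elsewhere, or from differences in cell content.  DBA/2J is known for audiogenic seizures and pigmentary glaucoma, and A/J for a dysferlin muscle disease. A bulk library cannot tell fewer cells of a type from less RNA per cell.

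The libraries differed in more than strain. Total counts ran from 20923565 to 28675309 in A/J and from 6493512 to 21607811 in DBA/2J, where male 2, female 2 and female 3 were the shallow libraries. In a principal component analysis of the 12 libraries the first component held 54.2% of the variance and placed A/J at -59.1 to -45.0 and DBA/2J at 19.2 to 68.2, with DBA/2J male 1 standing apart from the other 5. The difference also followed GC content and transcript length. The median log2 fold change (A/J minus DBA/2J) was -0.23 in the lowest and 0.24 in the highest of 5 equal groups of genes by GC content, and 0.31 in the shortest and -0.14 in the longest of 5 by length. After a correction of each library that was fitted to GC content and length, these medians lay close to 0 by construction, between -0.04 and -0.02. Counts of list members that kept their call and direction after that correction are therefore given beside the counts of each gene list. Reads of annotated rRNA genes stood at 36.7 to 87.1 CPM, a count relative to the library total, in A/J and 3.85 to 9.44 in DBA/2J. Libraries were sequenced 6 to a lane, and the labels do not say which shared a lane, so lane and strain cannot be told apart. The part of these measures in the results was not tested beyond the correction.

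**Figure D1:**
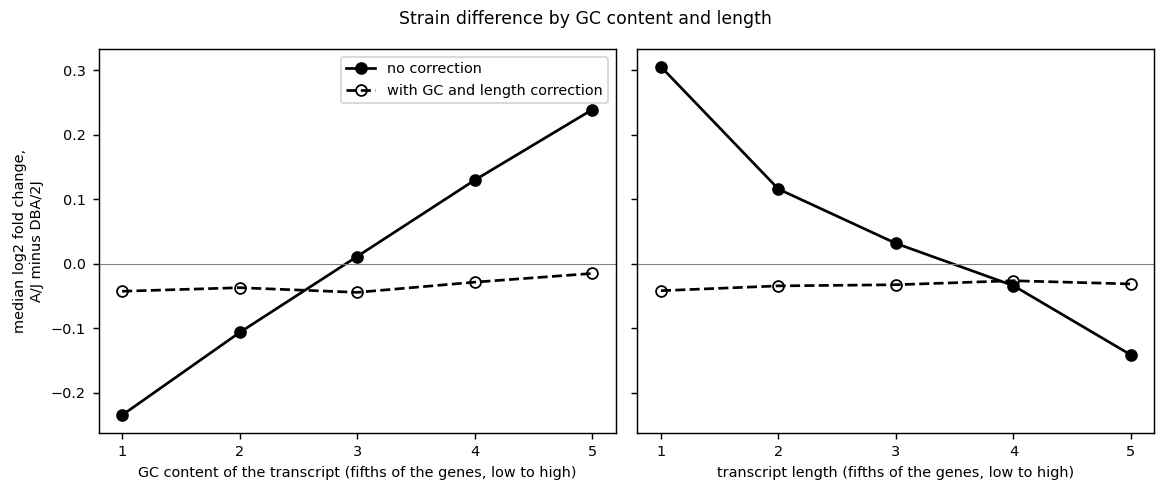
Median log2 fold change (A/J minus DBA/2J) of all tested genes with an annotated transcript, in 5 equal groups by GC content (left) and by transcript length (right), before (filled) and after (open) the correction for both. The uncorrected medians run from -0.23 to 0.24 with GC content and from 0.31 to -0.14 with length. The corrected ones stay close to 0 by construction, since the correction is fitted to both properties.

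Of 19702 genes tested, 9638 (48.9%) had an adjusted p under 0.05 with edgeR's quasi-likelihood test, 4984 of them higher in A/J (25.3%) and 4654 lower (23.6%). Most differences were small, since 3618 of these genes passed 1.5-fold and 2070 passed 2-fold, 1380 of these higher and 690 lower in A/J. All 6 libraries of A/J lay apart from all 6 of DBA/2J in 5159 of the 19702 genes (26.2%), called or not. Genes named from a list were those with its smallest p-values, so libraries apart are no independent result for them. A stricter group of 2134 genes (10.8%) was called, passed 1.5-fold and had its libraries apart. Of these, 1419 were higher (7.2%) and 715 lower (3.63%) in A/J. Of the 2010 genes of that group that could be corrected for GC content and length, 1933 (96.2%) kept their call and direction. Over all 19147 genes with a corrected value, 6118 (32%) were called with the same sign in both fits, 2899 higher (15.1%) and 3219 lower (16.8%) in A/J. A list in which about 25.3% of the members were higher and 23.6% lower, or in which 15.1% and 16.8% kept their calls, was close to the share over all genes. The deposited FPKM values gave another split. On their scale the median of all genes was shifted by 0.23 (log2), and 9080 genes were called higher and 1523 lower in A/J.

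**Figure D2:**
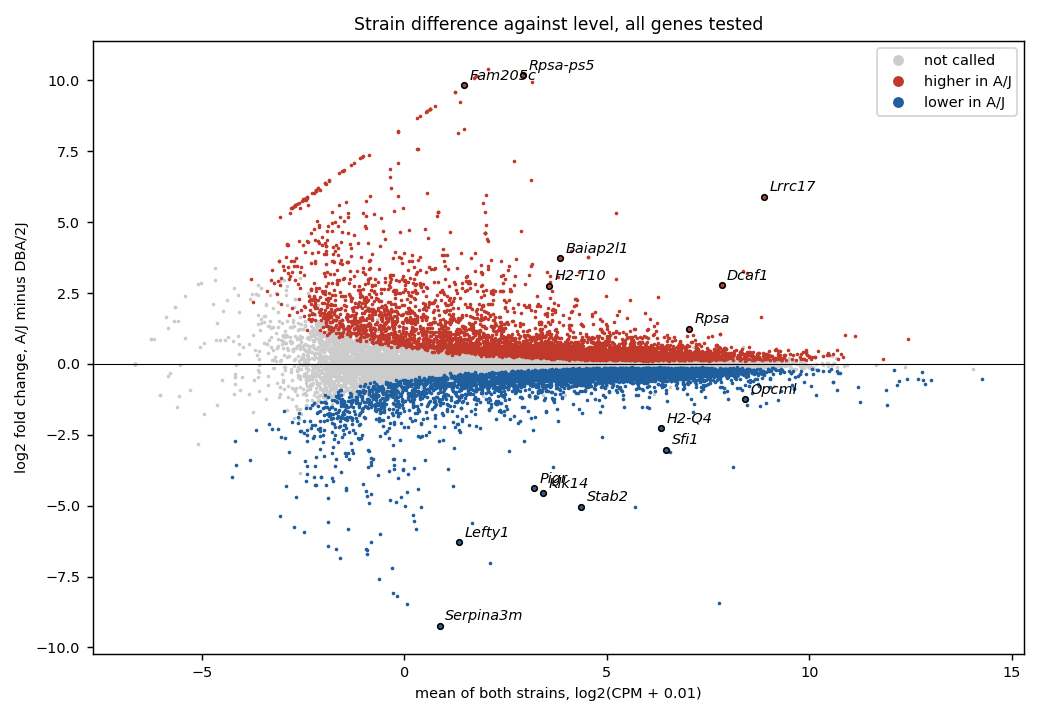
Log2 fold change (A/J minus DBA/2J) against the mean level of both strains in CPM (log2 axis), 1 point per tested gene, coloured by call at an adjusted p under 0.05. The straight run of points at the upper left holds genes with no count in any DBA/2J library, whose fitted fold changes are no measure of size.

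Among protein-coding genes higher in A/J, Lrrc17, Baiap2l1 and Krt12 were among the 12 named by size. Genes named by size, or by p among abundant genes, had to have all A/J libraries apart from all DBA/2J libraries. For them a lack of overlap was thus a condition and not a result. Lrrc17 (chr5:21543559-21575904) encodes a secreted leucine-rich repeat protein known for holding back osteoclast formation. Its level was lowest at 213, median 1029.8 and highest at 1279 CPM in A/J, and 8.24, 9.92 and 37.3 CPM in DBA/2J. No library overlapped, as the rule required, and the 3 A/J females lay above the 3 A/J males. The log2 fold change was 5.89 ± 0.40 (SE; adjusted p 3.39e-13). Lrrc17 reached 1096 ± 393 CPM in C57BL/6J, and its means were 48.1 in 129S1/SvImJ, 94.6 in DBA/1J and 12.7 in PWD/Ph, so A/J and C57BL/6J were the strains with a high level.

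Baiap2l1 (chr5:144264526-144358112), which encodes a membrane-bending protein that binds actin, had 21.4, 27.0 and 29.0 CPM as its lowest, median and highest level in A/J and 0.401, 1.86 and 5.72 in DBA/2J. Its level was about 13.2-fold higher in A/J (log2 3.73 ± 0.28, adjusted p 5.01e-12). The means of the remaining strains lay between 1.26 and 2.51 CPM, so A/J was the strain with the high level here. Krt12, a keratin of the corneal epithelium, stood at 3.39 ± 0.478 CPM in A/J and 0.0799 ± 0.0932 in DBA/2J. Tlr1, which pairs with Tlr2 to sense bacterial lipoproteins, stood at 3.91 ± 0.429 against 0.323 ± 0.276 CPM. The means of Tlr1 in the remaining strains did not exceed 1.00 CPM.

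Fam205c (chr4:42868004-42874234) had 848 counts over the 6 A/J libraries, at 4.51 to 6.98 CPM, and no count in any DBA/2J library. Against the limit of 3 counts over the DBA/2J group it was at least 143-fold higher in A/J. It stood at 4.38 CPM in C57BL/6J and 2.81 in 129S1/SvImJ, and at 0.0118 in DBA/1J. Lhx5, a LIM homeobox factor of hippocampal development, was at 2.74 ± 0.826 against 0.271 ± 0.154 CPM, and Gpr174, a lysophosphatidylserine receptor of lymphocytes, was at 4.48 ± 1.70 against 0.44 ± 0.367 CPM. The other genes that the rule named by size in this direction were Mucl3, Cyp4a31, Aldoart1, Gm5615 and 3110070M22Rik, with log2 fold changes from 3.32 to 4.73. Aldoart1 is a retrotransposed copy of an aldolase gene, so its counts may include reads of its relatives.

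Among protein-coding genes lower in A/J, Stab2, Lefty1 and Serpina3m led. Stab2 (chr10:86841198-87008025), an endothelial scavenger receptor that clears hyaluronan, had 1.08, 1.24 and 1.37 CPM as its lowest, median and highest level in A/J and 27.7, 39.7 and 54.7 in DBA/2J. Every DBA/2J library lay far above every A/J library, and the log2 fold change was -5.04 ± 0.19 (adjusted p 7.22e-20). DBA/1J had a mean of 45.3 CPM, and the means of C57BL/6J, 129S1/SvImJ and PWD/Ph lay between 0.428 and 1.5 CPM. The high level of Stab2 was thus seen in the pair of DBA strains. 

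Serpina3m (chr12:104338486-104394257), a serine protease inhibitor gene in a cluster of close copies, had no count in any A/J library and 283 counts over the DBA/2J libraries, at 3.00 to 4.28 CPM. It was at least 189-fold lower in A/J against the limit of 3 counts over the A/J group. It also had no count in C57BL/6J and PWD/Ph, and stood at 11.2 CPM in 129S1/SvImJ and 6.47 in DBA/1J. Lefty1 (chr1:180935022-180938400), an inhibitor of Nodal signalling that sets left-right asymmetry in the embryo, ranged from 0.0347 to 0.0925 CPM in A/J and from 3.96 to 6.42 in DBA/2J. C57BL/6J, 129S1/SvImJ and DBA/1J had means of 5.43 to 12.5 CPM for Lefty1, so here A/J had the low level, beside PWD/Ph at 0.516.

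Klk14, a secreted serine protease, stood at 0.888 ± 0.555 CPM in A/J and 20.6 ± 7.32 in DBA/2J. Pigr, which carries polymeric immunoglobulins across epithelia, stood at 0.822 ± 0.175 against 17.6 ± 4.89 CPM. Ghsr, the receptor of ghrelin, stood at 0.245 ± 0.0894 against 2.61 ± 0.422 CPM. The chemokine gene Ccl6 was at 0.528 ± 0.163 against 4.13 ± 0.428 CPM. For each of these 4 genes the A/J and DBA/2J libraries did not overlap, as the rule required. The log2 fold changes ran from -4.57 to -2.96. Rex2, Vmn2r29, Cd300lg, BC035947 and Sfi1, which is described below among the abundant genes, completed the genes named by size in this direction. Their log2 fold changes ran from -4.50 to -2.68. Vmn2r29 and Rex2 belong to families with close copies and are uncertain.

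Among abundant genes, at 30 CPM or more, those with the smallest p-values included Dcaf1, Sfi1 and Opcml. Dcaf1 (chr9:106821874-106880992), the substrate receptor of a cullin ubiquitin ligase, had 223, 345 and 644 CPM as its lowest, median and highest level in A/J and 49.4, 53.0 and 60.7 in DBA/2J. All A/J libraries lay above all DBA/2J libraries (log2 2.77 ± 0.09, adjusted p 1.54e-21), and C57BL/6J alone among the remaining strains was high, at 395 CPM. Fbxo44, an F-box subunit of another ubiquitin ligase, was at 73.2 ± 3.43 CPM in A/J against 43.0 ± 1.59.

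Sfi1 (chr11:3131850-3193463), a centrin-binding protein of the centrosome, had 14.2, 19.6 and 26.4 CPM in A/J and 129.8, 153 and 197 in DBA/2J. The strains were far apart (log2 -3.03 ± 0.10, adjusted p 8.93e-21), and PWD/Ph at 117 CPM was the only remaining strain whose mean passed 41.1. Opcml (chr9:27790775-28925410), a cell adhesion molecule on neuronal membranes, had 181, 205 and 218 CPM in A/J and 436, 482 and 538 in DBA/2J, a 2.37-fold lower level in A/J (adjusted p 7.95e-13). Padi2, a peptidylarginine deiminase found in oligodendrocytes, had 38.5, 43.5 and 45.8 CPM in A/J and 19.4, 21.3 and 23.9 in DBA/2J, a 1.99-fold higher level in A/J (adjusted p 2.44e-12). Libraries apart were a condition for naming these genes.

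The remaining abundant genes named by p were Rpsa, Tmem59l, Gm5148 and Cyb5r3, higher in A/J with log2 fold changes from 0.91 to 1.25, and Zfp949, Prune2, Dnajc10, 6030458C11Rik and Adi1, lower, with log2 fold changes from -1.53 to -0.86. Dnajc10 is a disulfide reductase of the endoplasmic reticulum and stood at 33.8 ± 3.58 CPM in A/J against 71.7 ± 2.96. Adi1, an enzyme of methionine salvage, stood at 28.0 ± 0.761 against 53.3 ± 1.68 CPM. Rpsa encodes a ribosomal protein with many processed copies, and its copy Rpsa-ps5 had 2371 counts in A/J and 1 in DBA/2J, so reads of the gene and its copies cannot be separated here with certainty. The exact 95% interval of the Rpsa-ps5 ratio, which covers counting error only, ran from 212 to 46612. Gm14513, a processed pseudogene on the X chromosome, had no count in A/J and 164 in DBA/2J, at least 108-fold lower in A/J, and its value turned to the other direction on the FPKM scale with no filter. The genes ENSMUSG00000092884 and ENSMUSG00000054123, which have no symbol in the annotation used, stood at 1.27 ± 0.51 against 435 ± 77.3 CPM and at 0.0843 ± 0.0711 against 8.65 ± 0.291 CPM.

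**Figure D3:**
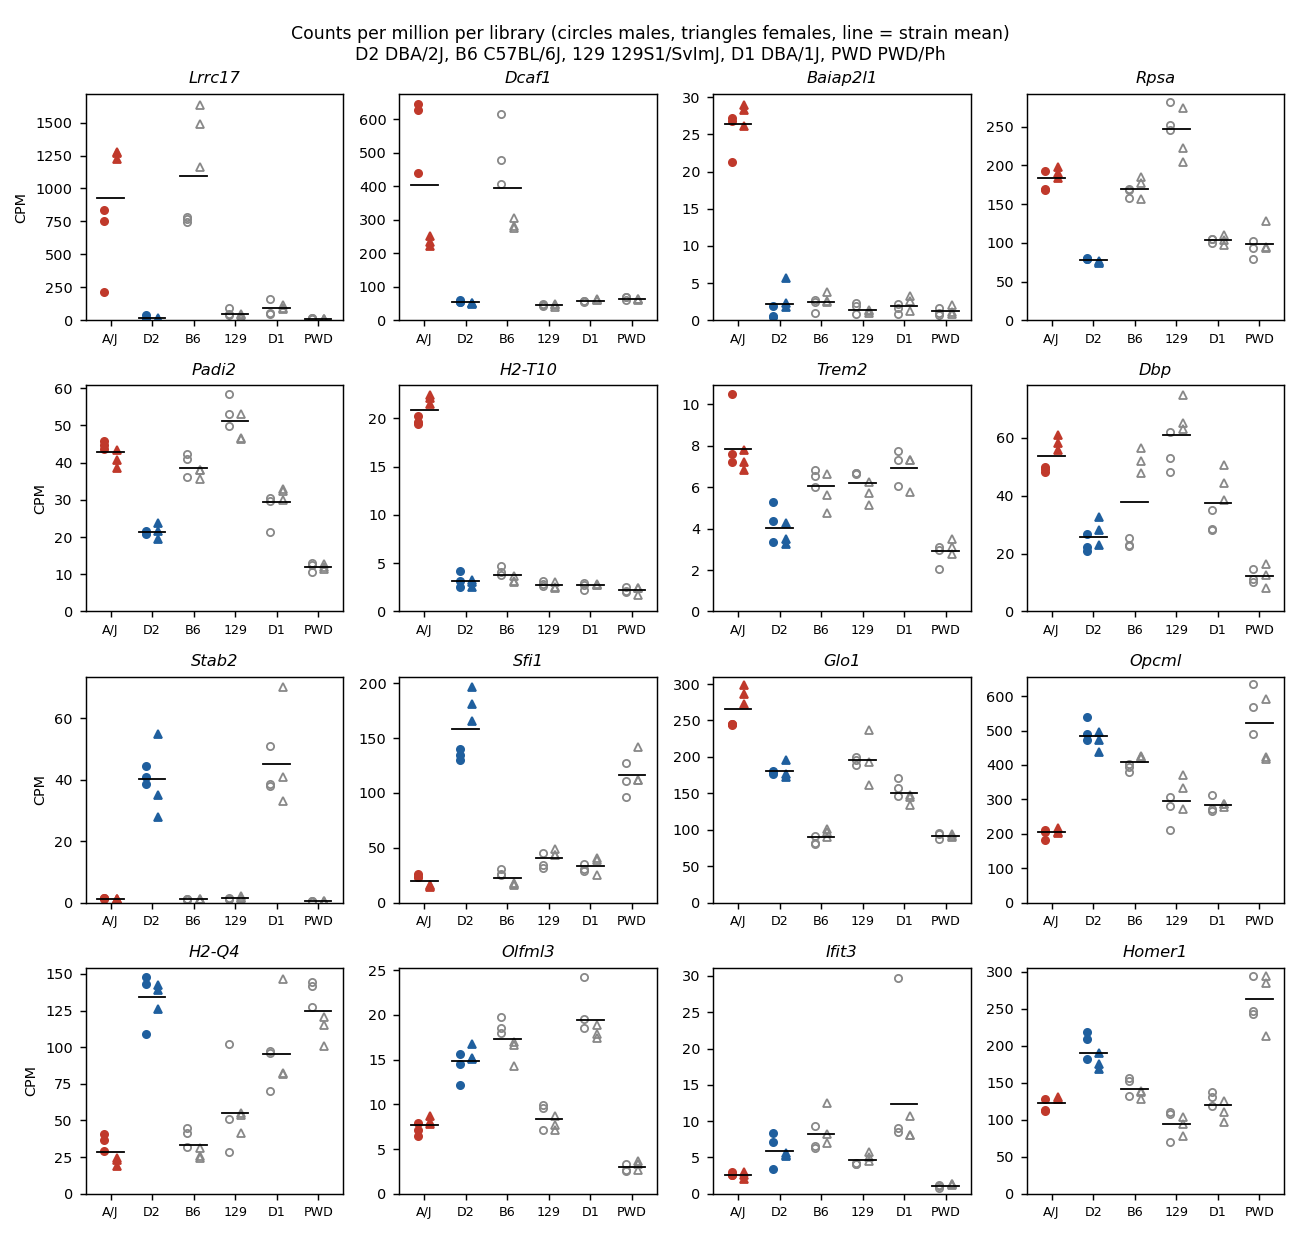
CPM of 16 genes in every library, with the scale of each panel starting at 0. A/J is red, DBA/2J blue and the remaining strains grey, circles are males, triangles are females and lines are means of 6 libraries. For all 16 genes the A/J and DBA/2J libraries do not overlap, a condition of choice for those named by size or as abundant genes. The high level is shared with C57BL/6J for Lrrc17 and Dcaf1, with DBA/1J for Stab2 and with PWD/Ph for Sfi1.

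A stretch of chromosome 7 had the densest set of calls. In windows of 10 Mb with at least 20 tested genes, 24.4% to 80.6% of the genes were called, with a median of 49.3% over 250 windows. The highest share lay at chr7:50000001-60000000, where 79 of 98 tested genes were called and 58 passed 1.5-fold with libraries apart. Most of them were copies of small nucleolar RNAs (snoRNAs) in an imprinted region whose human counterpart is lost in Prader-Willi syndrome. There, 72 annotated copies were tested within chr7:59344073-59978874, and 55 were higher in A/J, 3 were lower and 42 had no count in any DBA/2J library. Of all 220 tested snoRNAs, these copies among them, 107 were higher and 48 lower. The 42 copies without a DBA/2J count passed the low-count filter through the counts of other groups. Reads may be shared between near-identical copies, so the numbers of copies called here and in the window are not independent results. The summed level of the copies was 123 CPM in A/J and 15.7 in DBA/2J, against 133 in C57BL/6J, 79.5 in DBA/1J, 19.4 in 129S1/SvImJ and 10.7 in PWD/Ph.

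Sequences of 7 copies are printed to show how little those of the same length differ. Those of 79 bases and those of 94 bases have different sequences between their boxes. They come from the GENCODE M21 transcripts of GRCm38, all on the minus strand of chromosome 7, 5′ to 3′, with the C box (TGATGA) and the D box (CTGA) that define this class of snoRNA in capitals.
Gm22255: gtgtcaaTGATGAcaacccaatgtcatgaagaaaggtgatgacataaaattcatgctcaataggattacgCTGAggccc
Gm24926: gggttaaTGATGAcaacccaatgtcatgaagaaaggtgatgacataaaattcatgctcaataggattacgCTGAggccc
Gm24862: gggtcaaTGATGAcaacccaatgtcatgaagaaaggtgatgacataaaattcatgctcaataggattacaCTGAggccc
Gm25229: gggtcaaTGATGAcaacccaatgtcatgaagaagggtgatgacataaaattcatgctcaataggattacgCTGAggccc
Gm25210: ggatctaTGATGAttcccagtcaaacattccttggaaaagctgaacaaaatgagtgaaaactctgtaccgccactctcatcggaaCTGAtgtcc
Snord116l9: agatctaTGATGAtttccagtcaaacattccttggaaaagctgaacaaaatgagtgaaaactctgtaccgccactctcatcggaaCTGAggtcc
Gm23767: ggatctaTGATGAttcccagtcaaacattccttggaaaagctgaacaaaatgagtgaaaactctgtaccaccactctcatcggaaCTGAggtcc

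Both boxes, each within 20 bases of its end, were found in 65 of the 72 tested copies and in 20.5% of the 1507 snoRNAs of the annotation. The first 4 copies are 79 bases long and differ from Gm22255 by 2 substitutions each, counted from 1 at the 5′ end: T2G and C5T in Gm24926, T2G and G70A in Gm24862, and T2G and A34G in Gm25229. Gm22255 had 1269 counts in A/J and 0 in DBA/2J, at 6.20 to 14.1 CPM in A/J, at least 214-fold higher. Gm24926 had 724 counts against 0, at least 122-fold higher. Gm24862, chosen after its values were seen, had 277 counts in the deeper A/J libraries and 192 in DBA/2J, which is 1.82 ± 0.683 against 2.41 ± 1.45 CPM, and was not called. Gm25229, chosen in the same way, had 2 against 96 counts and was lower in A/J. Copies that differ by a pair of bases thus went in different directions.

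Gm25210, Snord116l9 and Gm23767 are 94 bases long, and Gm25210 has the same sequence as 3 other copies. Snord116l9 differs from Gm25210 by G1A, C16T and T90G, and Gm23767 by G70A and T90G. Gm25210 had 1082 counts in A/J against 0 in DBA/2J and Snord116l9 528 against 0. Gm22046, one of the other copies named by p in this window, had 1032 against 0. Gm23767, chosen after its values were seen, had 606 against 178 counts, or 3.86 ± 0.964 against 1.91 ± 1.67 CPM. It was called higher in A/J but not after the GC and length correction. Of the 27 tested copies of 94 bases, 26 were higher in A/J, and of the 41 copies of 79 bases 27 were higher and 3 lower. Because 41 of the 72 copies share their whole sequence with another copy, and reads of all strains were placed on the reference genome of C57BL/6J, the level of a single copy is uncertain. Whether strain variants inside the copies moved reads between them was not tested.

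**Figure D4:**
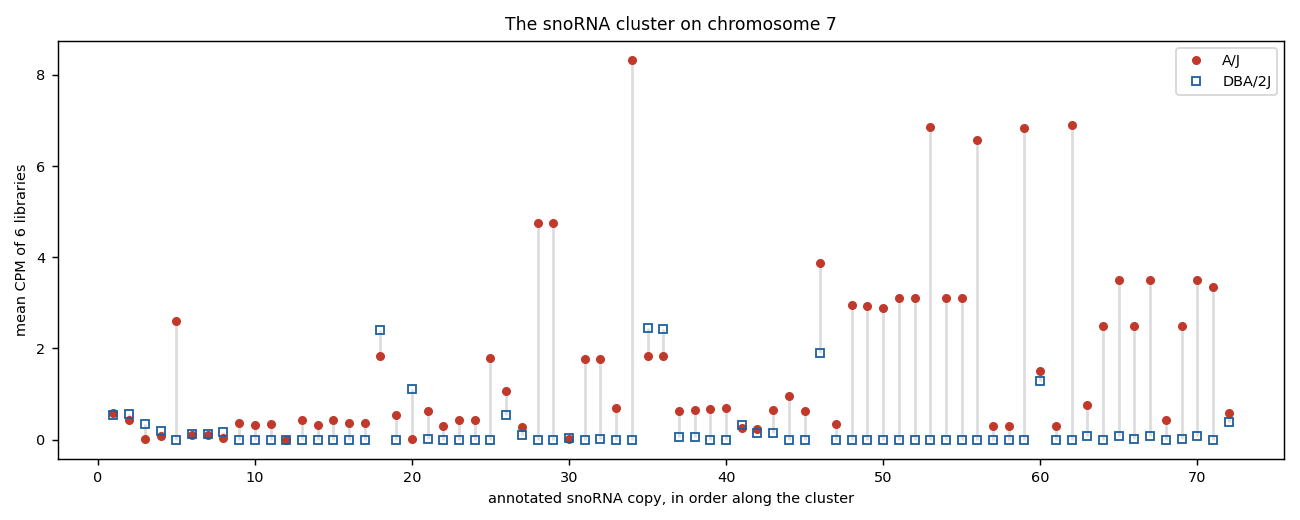
Mean CPM of 6 A/J libraries (filled) and 6 DBA/2J libraries (open) for the 72 tested snoRNA copies of the chromosome 7 cluster, in their order along the chromosome. DBA/2J stands at 0 for 42 copies, and the summed level is 123 CPM in A/J against 15.7 in DBA/2J.

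The next windows by share were chr4:1-10000000, with 22 of 29 genes called, and chr3:110000001-120000000, with 25 of 33. In the former, Tmem68 and Nsmaf were lower in A/J (log2 -0.60 and -0.53), and Gm11808 and 4930412C18Rik were higher (log2 0.92 and 1.32). In the latter, Palmd, which encodes palmdelphin, had 34.7, 36.3 and 39.2 CPM in A/J and 11.7, 13.7 and 16.9 in DBA/2J, with DBA/1J at 11.5. Palmd was 2.63-fold higher in A/J (adjusted p 2.09e-14), and its neighbours Dph5, Slc35a3 and Trmt13 were lower, with log2 fold changes of -1.23, -0.74 and -0.75. Dph5 makes the diphthamide of elongation factor 2, Slc35a3 carries a nucleotide sugar into the Golgi, and Trmt13 methylates transfer RNA. In the chromosome 7 window the ribosomal protein pseudogene Rps12l1 stood at 18.7 ± 2.38 against 6.48 ± 1.57 CPM, and its reads may be shared with its parent gene. Genes over the genome as a whole included 1369 tested processed pseudogenes, of which 789 were higher and 135 lower in A/J with a median log2 fold change of 0.75, or 0.42 after the GC and length correction.

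Markers of excitatory, inhibitory, glial and vascular cells were detected in both strains, as the tissue label says. Of 20 markers of hippocampal subfields, 4 were higher and 7 lower in A/J, with a median of -0.12 against 0.02 for all genes, 3 and 5 kept their calls after the correction with a median of -0.19, and on the FPKM scale 6 were higher and 2 lower. Iyd, an iodotyrosine deiodinase, was at 1.09 ± 0.268 CPM in A/J against 3.86 ± 0.686, a 3.57-fold lower level without overlap. Calb1, the calbindin of dentate and CA1 cells, had 69.2 to 100.3 CPM in A/J and 119 to 131 in DBA/2J, and its log2 fold change of -0.50 was -0.21 after the GC and length correction. Map3k15 had a log2 fold change of -0.54, which turned to 0.04 on the FPKM scale, where the median of all genes was 0.23. Bok, a Bcl-2 family member, was at 0.62 with overlapping libraries.

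General markers of glutamatergic neurons split, with 3 of 10 higher and 6 lower, 2 and 4 of them kept after the correction, or 4 and 0 on the FPKM scale. Slc17a7, the vesicular glutamate transporter of principal cells, had 1020.1, 1096 and 1219.9 CPM in A/J and 753, 819.6 and 924 in DBA/2J, 1.35-fold higher in A/J with libraries apart (adjusted p 1.54e-06). Camk2b, a kinase subunit of the postsynapse, was 1.22-fold higher. Without the 3 shallow DBA/2J libraries 3 members were higher and 2 lower. Of 22 interneuron markers, 5 were higher and 4 lower, or 4 and 2 without the shallow libraries, and 2 and 3 kept their calls after the correction, where the median of 0.14 was -0.03. On the FPKM scale 12 were higher and 1 lower. Vip, a neuropeptide of interneurons that inhibit other interneurons, stood at 10.5 ± 1.36 CPM against 15.7 ± 1.06 (log2 -0.59, adjusted p 4.54e-06). Calb2, the calretinin of an overlapping class of interneurons, went the other way, at 26.7 ± 3.10 against 14.8 ± 2.82 CPM (log2 0.84), and Dlx1, a homeobox factor of interneurons, had a log2 fold change of -0.35 with overlapping libraries.

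Astrocyte markers also split, with 8 of 16 higher and 6 lower in A/J, 5 and 4 without the shallow libraries, and 9 and 0 on the FPKM scale. After the correction 5 and 3 kept their calls. Glul, the glutamine synthetase of astrocytes, had 911 to 1278 CPM in A/J and 777 to 897 in DBA/2J, and Mlc1, a membrane protein of astrocyte endfeet, had 123 to 156 against 95.4 to 115. Atp1b2, a sodium pump subunit, was lower, at 374 to 419 against 469 to 520.2 CPM. The libraries of these 3 genes were apart between the strains, as in 26.2% of all genes. Of 18 oligodendrocyte and myelin markers 2 were higher and 3 lower, 0 and 0 kept their call with the GC and length correction, and 14 and 0 were called on the FPKM scale. In that list Ermn and Tspan2 had log2 fold changes of -0.43 and -0.25, which were -0.17 and -0.05 after the correction. On the FPKM scale the value of Tspan2 was 0.31.

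Vascular markers held a clear difference in Rgs5, a pericyte gene that dampens G protein signals. Rgs5 had 104, 116 and 127 CPM in A/J and 184, 210.5 and 215 in DBA/2J, 1.77-fold lower in A/J (adjusted p 3.02e-11). Flt1, a vascular endothelial growth factor receptor, had a log2 fold change of -0.37. Of the 20 endothelial and mural markers 3 were higher and 5 lower, with a median of -0.07, 1 and 5 kept their calls after the correction, and 5 and 2 were called on the FPKM scale. Markers of the choroid plexus, a tissue next to the hippocampus, had summed levels of 153 to 2942 CPM in A/J and 220 to 5765 in DBA/2J. Of its 18 markers 0 were higher and 3 lower, and 0 and 1 kept their calls after the correction. Prlr, the prolactin receptor, ranged from 6.85 to 55.2 CPM in A/J and from 12.4 to 224 in DBA/2J, and Tmem72 from 0.0754 to 11.6 and from 0.803 to 57.1. The ranges overlapped, and their part in the values of other genes was not tested.

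Markers of red blood cells were higher in A/J, 4 of 5, with summed levels of 252 to 456 CPM against 105 to 181. Hbb-bs and Hbb-bt, which encode adult beta globins, stood at 101 ± 24.3 against 33.6 ± 9.0 CPM and at 61.6 ± 15.8 against 16.8 ± 4.67 CPM. The globin genes are near-identical pairs, and the split between them is uncertain. The median log2 fold change of the list was 1.23, and 0.72 after the correction, where 4 and 0 kept their calls.

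Microglial markers were mostly higher in A/J. Of 20 markers, 13 were higher and 1 lower, and 8 and 1 with the same sign after the GC and length correction, with medians of 0.31 and 0.16. Without the 3 shallow DBA/2J libraries, 8 were higher and 1 lower. The summed level of the list was 450 to 541 CPM in A/J and 387 to 433 in DBA/2J. Blood markers moved in the same direction, as given above, and their part in this result was not tested.

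Csf1r, the receptor that microglia need to survive, had 72.7, 83.6 and 91.6 CPM in A/J and 47.9, 55.0 and 59.5 in DBA/2J, 1.53-fold higher in A/J without overlap (adjusted p 9.49e-09). Trem2, a lipid-sensing receptor of microglia, had 6.81, 7.39 and 10.5 CPM in A/J and 3.28, 3.87 and 5.29 in DBA/2J, 1.94-fold higher (adjusted p 2.83e-07). Laptm5, a lysosomal membrane protein of immune cells, was 1.43-fold higher. Olfml3, a secreted protein that marks microglia, was the exception among the markers. It had 6.43, 7.87 and 8.64 CPM in A/J and 12.2, 15.1 and 16.7 in DBA/2J, 1.95-fold lower in A/J (adjusted p 8.84e-10). Among 22 genes linked to Alzheimer disease, which include Trem2, 11 were higher and 4 lower, with a median of 0.15. After the correction 6 and 1 kept their calls and the median was 0.08. Cd33, an inhibitory sialic acid receptor, stood at 6.24 ± 0.99 against 3.41 ± 0.368 CPM, and Psenen, a subunit of gamma-secretase, at 21.1 ± 2.15 against 11.5 ± 1.72 CPM, with a log2 value of 0.86 that was 0.41 after the correction.

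The genes of antigen presentation went in both directions, with 4 of 24 higher and 7 lower in A/J, all of which kept their calls after the correction. The median of 0.06 was -0.17 after it. A/J and DBA/2J carry different haplotypes of the major histocompatibility complex (MHC) on chromosome 17, which holds many but not all genes of this list. H2-T10 (chr17:36115876-36121465), a non-classical class I gene annotated as a polymorphic pseudogene, had 19.4, 20.9 and 22.4 CPM in A/J and 2.50, 3.13 and 4.15 in DBA/2J, 6.77-fold higher (adjusted p 2.61e-19). H2-Q4 (chr17:35379617-35385290), another class I gene, had 18.8, 26.8 and 40.5 CPM in A/J and 109, 140 and 148 in DBA/2J, 4.79-fold lower (adjusted p 4.27e-11). Psmb9, a subunit of the immunoproteasome, was at 1.68 ± 0.458 against 0.587 ± 0.308 CPM, and Tap2, which carries peptides to class I molecules, was at 8.57 ± 0.806 against 4.80 ± 0.853 CPM. Class I genes are close copies that vary between haplotypes, so the levels of H2-T10 and H2-Q4 are uncertain.

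Genes induced by interferon were lower in A/J where they differed, with 0 of 30 higher and 13 lower and a median of -0.46, or -0.47 after the GC and length correction, where 0 and 12 kept their calls. Without the 3 shallow libraries the counts were again 0 and 13. Without DBA/2J male 1 they were 1 and 12, and with counts thinned to the depth of the shallowest library 1 and 3. On the FPKM scale 2 were higher and 3 lower. Ifit3, an RNA-binding antiviral effector, had 2.06, 2.60 and 2.98 CPM in A/J and 3.48, 5.47 and 8.40 in DBA/2J, 2.27-fold lower without overlap (adjusted p 0.000232). Ifit1 stood at 1.62 ± 0.37 against 3.14 ± 0.865 CPM and Ifit2 at 7.25 ± 0.92 against 10.2 ± 0.546 CPM. Ifih1, a sensor of double-stranded RNA, stood at 1.89 ± 0.264 against 3.39 ± 0.879 CPM (log2 -0.86). On the FPKM scale its value was 0.12, against a median of 0.23 for all genes. The libraries of Ifit1 and Ifih1 overlapped between the strains.

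The promoters of Ifit3 and Ifit1 are printed because both genes were lower in A/J and hold the element through which interferon acts. The 250 bases before each start are from RefSeq on GRCm38.p6, plus strand, 5′ to 3′, chr19:34583279-34583528 for Ifit3 and chr19:34640639-34640888 for Ifit1, with matches to the interferon-stimulated response element in capitals (GAAANNGAAA, here met on the opposite strand).
Ifit3: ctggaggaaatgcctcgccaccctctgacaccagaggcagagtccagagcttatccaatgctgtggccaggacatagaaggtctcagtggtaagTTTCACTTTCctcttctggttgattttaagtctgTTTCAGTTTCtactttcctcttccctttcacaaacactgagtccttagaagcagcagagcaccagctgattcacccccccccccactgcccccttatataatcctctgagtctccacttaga
Ifit1: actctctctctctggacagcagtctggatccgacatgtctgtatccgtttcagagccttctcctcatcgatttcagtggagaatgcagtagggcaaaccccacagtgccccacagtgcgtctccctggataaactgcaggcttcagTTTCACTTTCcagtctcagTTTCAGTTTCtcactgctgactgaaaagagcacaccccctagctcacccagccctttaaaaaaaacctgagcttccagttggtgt

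Both promoters hold 2 matches. Searched on both strands, with overlaps allowed, the element was found in the promoters of 11 of the 22 listed genes that have an entry, and in 3.46% of 27025 genes. It was found in 5 of 9 members lower in A/J and in 6 of 13 members that were not called. A match is a description of these letters and not a binding site, and the promoters of Ifit2 and Ifih1 held none in this window. The sequence is that of the reference strain, and variants of A/J or DBA/2J in it were not analysed here.

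Complement genes, 5 of 19 higher and 5 lower, were close to the shares over all genes of 25.3% and 23.6%. After the correction 2 and 4 kept their calls, and the median of 0.24 was 0.05. C5ar2, a receptor of the C5a fragment, stood at 2.11 ± 0.641 against 4.99 ± 0.748 CPM (log2 -1.24, adjusted p 0.000143). Cd46, a regulator of complement, had a log2 fold change of -0.88 and C2, a protease of the classical pathway, one of 0.70, both with overlapping libraries.

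Of 17 clock genes, 6 were higher and 4 lower in A/J, and 3 and 3 kept their calls after the correction. Dbp, an output factor driven by the clock, had 48.0, 52.9 and 60.9 CPM in A/J and 20.9, 24.8 and 32.6 in DBA/2J, 2.13-fold higher (adjusted p 2.35e-09). Ciart, a repressor of the clock activators, stood at 10.4 ± 0.933 against 5.28 ± 0.937 CPM, and Bhlhe41, another repressor, at 46.4 ± 3.11 against 32.1 ± 0.944 CPM. Arntl, which encodes the activator BMAL1, had 16.7, 17.4 and 18.3 CPM in A/J and 23.5, 25.8 and 29.0 in DBA/2J, 1.48-fold lower (adjusted p 1.67e-07). All 4 genes were without overlap and kept their calls after the GC and length correction. Clock genes change over the day, and the labels do not state the hour of dissection.

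Immediate early genes are switched on in neurons by activity. Of 22, 1 was higher and 8 lower in A/J, against 25.3% and 23.6% of all genes, with a median of -0.25, or -0.30 after the correction, where 1 and 7 kept their calls. Without the 3 shallow libraries 0 were higher and 4 lower, and on the FPKM scale 5 were higher and 0 lower. Homer1, whose short form loosens receptor clusters at the synapse, had 112, 128 and 131 CPM in A/J and 169, 186 and 218 in DBA/2J, 1.55-fold lower (adjusted p 2.35e-06). Fosl2, a subunit of the AP-1 factor, and Nr4a3, an orphan nuclear receptor, had log2 fold changes of -0.37 and -0.36. All 3 had libraries apart.

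Among receptors for glutamate and GABA the differences were small. Metabotropic glutamate receptors had 0 of 7 higher and 3 lower. Grm5, a receptor that drives synaptic depression in CA1, had 286, 348 and 353 CPM in A/J and 416, 492 and 503 in DBA/2J, 1.43-fold lower (adjusted p 3.45e-05). After the correction 0 and 3 kept their calls, and on the FPKM scale 0 were higher and 0 lower. Ionotropic receptors had 4 of 18 higher and 6 lower, or 8 and 0 on the FPKM scale, and 2 and 1 kept their calls after the correction. Grik4, a kainate receptor subunit of CA3, was 1.30-fold higher. Gria2, the AMPA receptor subunit that blocks calcium entry, had a log2 fold change of -0.36, which was -0.02 after the GC and length correction and no longer called. GABA receptors had 1 of 17 higher and 4 lower, of which 1 and 1 kept their calls after the correction, or 7 and 0 on the FPKM scale, with Gabbr1, a subunit of the metabotropic GABA receptor, 1.23-fold higher.

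Potassium channel genes had 6 of 46 higher and 12 lower, 6 and 7 without the shallow libraries, and 18 and 2 on the FPKM scale, and 3 and 9 kept their calls after the correction. Kcnk1, a leak channel, had 36.9, 41.5 and 46.4 CPM in A/J and 59.8, 67.7 and 73.0 in DBA/2J, 1.61-fold lower (adjusted p 1.26e-11). The channel subunits Kcnh7 and Kcnt2 had log2 fold changes of -0.56 and -0.58. Sodium and calcium channels had 5 of 26 higher and 7 lower, or 11 and 2 on the FPKM scale, and 2 and 3 kept their calls after the correction. Cacna1e, the pore of R-type calcium channels, had 216, 278 and 319.99 CPM in A/J and 435, 443 and 514 in DBA/2J, 1.70-fold lower (adjusted p 6.43e-07), and Cacnb3, an accessory subunit, was 1.38-fold higher.

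Genes of synaptic vesicle release had 13 of 28 higher and 4 lower, 9 and 4 after the correction. The members that were lower included the vesicle protein Sv2c, the active zone scaffold Pclo and the calcium sensor Syt2. Sv2c had 8.67, 9.17 and 12.2 CPM in A/J and 12.7, 19.9 and 25.3 in DBA/2J, 1.91-fold lower (adjusted p 3.68e-06), and Pclo and Syt2 were 1.55-fold and 1.40-fold lower. Cplx2, a complexin that clamps release, had 1834 to 2139 CPM in A/J and 1399.6 to 1636 in DBA/2J, 1.28-fold higher. For these 4 genes the libraries did not overlap.

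Genes of protein synthesis and energy supply held long lists of genes higher in A/J, whose medians were smaller after the GC and length correction. Of 73 cytosolic ribosomal protein genes, 52 were higher and 4 lower, with a median log2 fold change of 0.42. After the correction the median was 0.18, and 35 and 3 kept their calls. Rps28 had 65.2, 71.4 and 87.9 CPM in A/J and 21.7, 28.7 and 46.4 in DBA/2J, 2.35-fold higher (adjusted p 1.83e-09). Rps15a and Rps2 were 1.60-fold and 1.88-fold higher. Ribosomal protein genes have many processed copies, so reads may be shared between them.

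Of 66 nuclear subunits of the respiratory chain, 52 were higher and 1 lower, with a median of 0.44, or 0.17 after the correction with 30 and 0 kept. Ndufb8, a subunit of complex I, had 57.8, 63.7 and 73.2 CPM in A/J and 33.5, 34.7 and 40.5 in DBA/2J, 1.8-fold higher (adjusted p 1.01e-10), and its log2 value of 0.85 was 0.82 after the correction. Cox8a, a subunit of complex IV, was at 0.94 and 0.42, and Ndufb9, another subunit of complex I, at 0.59 and 0.10, the latter no longer called. The Ndufb8 and Ndufb9 values of the same complex thus moved by different amounts.

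Genes of the mitochondrial genome went the other way in counts, with 2 of 37 higher and 16 lower and a median of -0.28, or -0.48 after the correction, where 2 and 16 kept their calls. On the FPKM scale 11 were higher and 8 lower, with a median of 0.39. Mitochondrial genes took 6.61% to 9.72% of all counts in A/J and 10.8% to 12.1% in DBA/2J. mt-Co1, the core of complex IV, had 13764, 16478 and 18091 CPM in A/J and 21845, 23481 and 24131 in DBA/2J, 1.45-fold lower (adjusted p 6.16e-06), and mt-Nd4 and mt-Nd2 were 1.65-fold and 1.68-fold lower. The libraries of all 3 genes were apart.

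Enzymes of glutathione, glyoxalase and antioxidant defence had 24 of 47 higher and 3 lower, with a median of 0.24, and 10 and 1 after the correction with a median of 0.09. Sod1, the cytosolic superoxide dismutase, had 79.7, 83.0 and 93.96 CPM in A/J and 53.1, 54.7 and 59.8 in DBA/2J, 1.51-fold higher (adjusted p 2.07e-07), and its log2 value of 0.59 was 0.62 after the correction. Gpx4, which protects membrane lipids, was 1.55-fold higher, and its log2 value of 0.63 was 0.20 after the correction. Chaperones and stress genes of the endoplasmic reticulum had 2 of 20 higher and 8 lower, with Xbp1, a transcription factor of the unfolded protein response, and Dnajc3, a co-chaperone, lower, with log2 fold changes of -0.39 and -0.34. After the correction 0 and 6 of that list kept their calls, and on the FPKM scale 5 were higher and 0 lower.

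Imprinted genes, expressed from the chromosome of 1 parent, had 2 of 25 higher and 10 lower, of which 2 and 7 kept their calls after the correction, and on the FPKM scale 5 and 2. Peg3, a zinc finger factor, had 309, 341 and 388 CPM in A/J and 441, 509 and 535 in DBA/2J, 1.44-fold lower (adjusted p 2.00e-07), and Nap1l5 was 1.38-fold lower. The long non-coding RNA Meg3 was called lower in A/J (log2 -0.92, adjusted p 1.03e-05). It ranged from 1303 to 1914 CPM in A/J females, from 3138.5 to 4518 in A/J males and from 3513 to 5502 in DBA/2J. The range of the A/J males alone overlapped that of DBA/2J. Long intergenic non-coding RNAs as a class ran from 5294 to 11268 CPM in A/J and from 10099 to 14718 in DBA/2J.

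**Figure D5:**
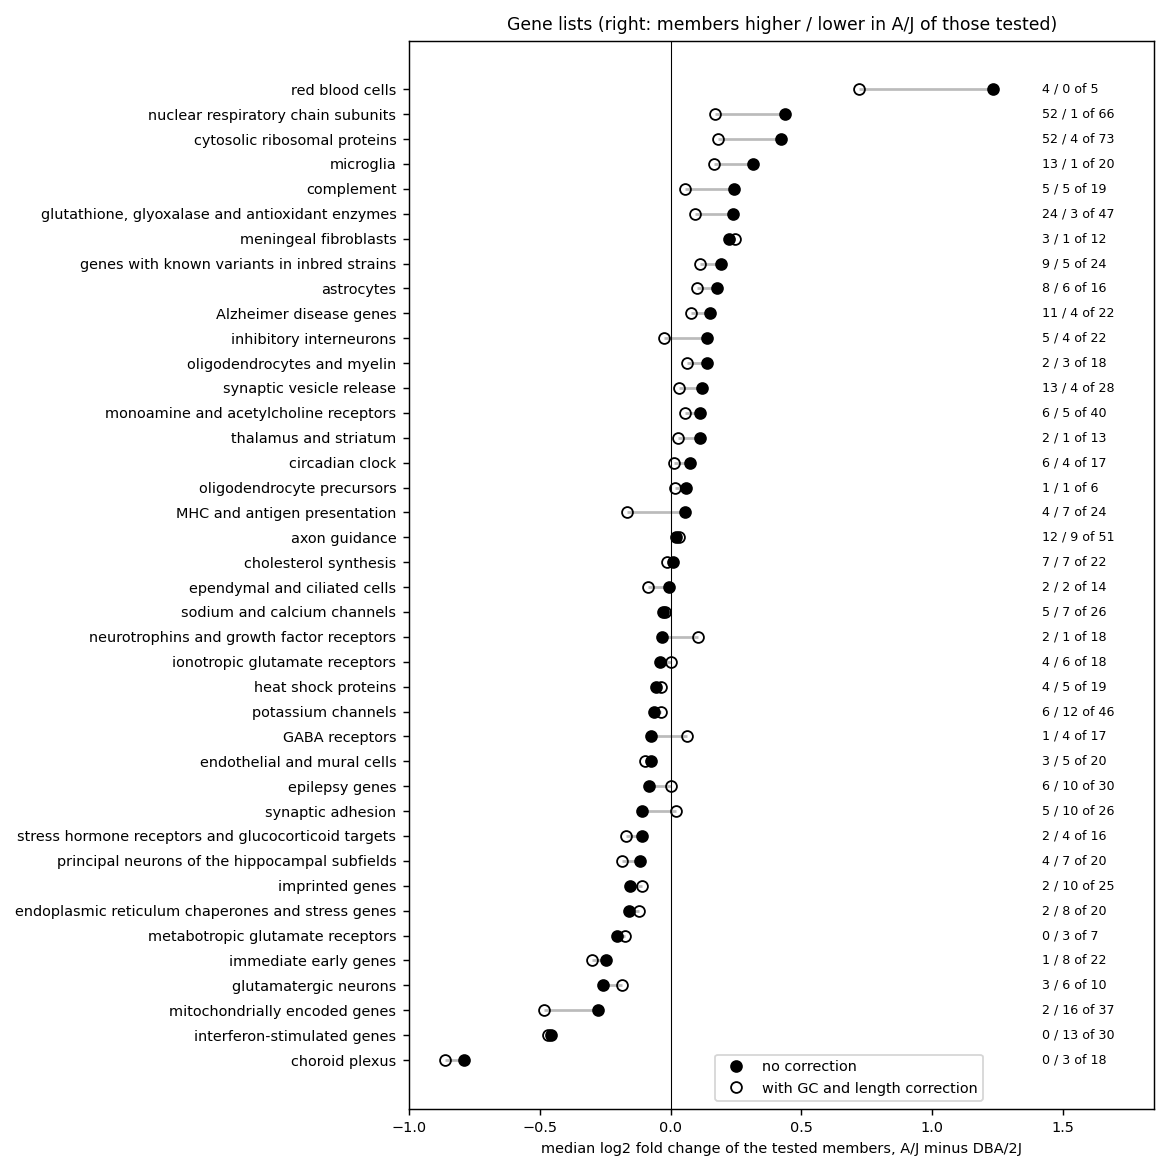
Median log2 fold change (A/J minus DBA/2J) of the tested members of each gene list with at least 5 tested members, before (filled) and after (open) the GC and length correction, with the members higher and lower in A/J at the right. Ribosomal and respiratory chain genes lie at 0.42 and 0.44 before the correction and at 0.18 and 0.17 after it, and interferon-stimulated genes stay at -0.46 and -0.47.

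Genes with variants known in these or other inbred strains check the strain labels. Gpnmb, which carries a stop codon in DBA/2J, ranged from 0.740 to 2.71 CPM in A/J and from 0.0545 to 0.535 in DBA/2J (log2 2.93 ± 0.39), and the means of the remaining strains ran from 1.94 to 3.69. Dysf, which holds a retrotransposon in A/J, ranged from 0.324 to 0.867 CPM in A/J and from 0.401 to 3.31 in DBA/2J (log2 -1.24 ± 0.31, adjusted p 0.0013). The low Gpnmb level in DBA/2J goes with the label, and the Dysf libraries of the strains overlapped.

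Glo1 (chr17:30584936-30626871), glyoxalase 1, lies in a segment that is duplicated in some inbred strains, A/J and DBA/2J among them. Its level was lowest at 243, median 259 and highest at 299 CPM in A/J and 172, 178 and 196 in DBA/2J, 1.47-fold higher in A/J without overlap (adjusted p 1.90e-08). Its neighbour Btbd9 stood at 177 ± 8.99 against 132 ± 10.2 CPM, 1.34-fold higher. The Glo1 means of C57BL/6J and PWD/Ph were 90.5 and 92.1 CPM, under both.

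Alad, an enzyme of haem synthesis whose copy number varies between strains, was 1.33-fold higher in A/J, and after the GC and length correction its log2 value of 0.41 was 0.14 and no longer called. Nnt, the proton-pumping transhydrogenase that C57BL/6J lacks in full length, was at 28.4 ± 1.16 against 21.3 ± 3.20 CPM. The log2 fold change was -0.48 for Ahr, the aryl hydrocarbon receptor, -0.30 for Wdfy1, -0.24 for the scaffold gene Mpdz, which lost its call with the correction (-0.12), and -0.67 for Naip5, a sensor of bacterial flagellin. It was 1.21 for the cadherin Cdh23, at 1.37 against 0.571 CPM, and 0.20 for S100b, a calcium-binding protein of astrocytes, which lost its call with the correction and without the shallow libraries. Nlrp1b had 71 counts in A/J and 2 in DBA/2J, with an exact 95% interval of the ratio from 4.71 to 149, and belongs to a family of close copies. In all, 9 of the 24 tested genes of this list were higher and 5 lower, and Tyrp1, Tyr, Myo5a, Hdhd3, Entpd4, Kcnj9, Fscn2, Cs, Gabra2 and Cyp2d22 were not called. Their log2 fold changes ran from -0.14 to 0.66. After the correction 7 and 4 kept their calls, and Myo5a (0.42), Kcnj9 (-0.30), Gabra2 (0.20) and Cyp2d22 (-0.20) were called, Gabra2 with the opposite sign. Hc, Klrd1, Ifi202b and Apoa2 had too few counts to be tested.

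Within each sex fewer genes were called, since each comparison had 3 libraries against 3. In males 5728 genes (29.1%) were called, 3004 higher (15.2%) and 2724 lower (13.8%) in A/J, and in females 7292 (37%), 3700 higher (18.8%) and 3592 lower (18.2%). Of the genes called in both sexes, 3719 had the same sign and 17 the opposite sign. The strain difference itself differed between the sexes in 111 genes (0.563%), 8 with a larger value in females (0.0406%) and 103 with a smaller one (0.523%). The value is the signed log2 fold change, so a smaller value can be a wider gap between the strains, as for Sfi1 below. The count of 111 depended on single libraries. Without the 3 shallow ones 0 genes were called by edgeR, with 1924 of 20577 at an unadjusted p under 0.05. That fit left 1 DBA/2J female, which was assumed to vary like the libraries of the other groups, so its 0 is no sign for or against a difference. It also fell to 5 without A/J female replicate 1 and to 8 without A/J male replicate 1 or without DBA/2J male replicate 1.

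Dcaf1 led the genes whose strain difference depended on sex. It stood at 439, 629 and 644 CPM in the 3 A/J males and at 223, 233 and 251 in the 3 A/J females, against 53.8 to 60.7 in DBA/2J males and 49.4 to 52.3 in DBA/2J females. The strain difference was smaller in females than in males, with a difference of -1.13 ± 0.17 (SE, log2; adjusted p 0.00231). The next genes by p were Fndc1, Trank1, Rreb1, Zfp512b and Sfi1. Being called in this test was a condition for naming these genes, and not all of them stayed called when single libraries were left out. For Rreb1, a zinc finger factor of the Ras pathway, the strain difference was 0.52 in males and -0.76 in females, and for Zfp512b it was 0.30 and -0.31. Sfi1 was lower in A/J in both sexes, at -2.47 in males and -3.59 in females (log2). The A/J females were 1 day older than the males, so sex and age cannot be told apart in that strain. Total counts also ran from 27852687 to 28675309 in A/J females and from 20923565 to 25171599 in A/J males. Long intergenic non-coding RNAs ran from 5294 to 6649 CPM of the library total in A/J females and from 7743 to 11268 in A/J males. The part of these measures in the differences between the sexes was not tested.

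The remaining lists are given by their members higher and lower in A/J, against 25.3% and 23.6% of all genes, and by those that kept their calls after the correction, against 15.1% and 16.8%. Axon guidance genes had 12 of 51 higher and 9 lower, with 7 and 5 kept, and 22 and 1 on the FPKM scale. Cholesterol synthesis had 7 and 7 of 22, with 2 and 5 kept, and 11 and 0 on the FPKM scale. Epilepsy genes had 6 and 10 of 30, with 3 and 4 kept, and 10 and 0 on the FPKM scale. Synaptic adhesion had 5 and 10 of 26, with 3 and 3 kept, 5 and 2 without the shallow libraries and 18 and 0 on the FPKM scale. Nearly all called members of these lists were thus higher on the FPKM scale. Monoamine and acetylcholine receptors had 6 and 5 of 40, with 2 and 3 kept, heat shock proteins 4 and 5 of 19, with 3 and 2 kept, glucocorticoid genes 2 and 4 of 16, with 1 and 2 kept, and neurotrophins 2 and 1 of 18, with 2 and 0 kept. Among markers of neighbouring tissue, meningeal fibroblasts had 3 and 1 of 12, all kept, thalamus and striatum 2 and 1 of 13, with 0 and 1 kept, and ependymal cells 2 and 2 of 14, with 2 and 1 kept. Oligodendrocyte precursors had 1 and 1 of 6, with 0 and 0 kept. Of the pituitary list only Pomc and Gh could be tested, and neither was called.

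The correction also moved the values of other described genes by over 1.5 times without ending their calls. The log2 values after it were 0.48 for Fbxo44, -0.18 for Wdfy1, 0.24 for Bok, 0.23 for Slc17a7, 0.16 for Camk2b, -0.38 for Vip, 0.31 for Laptm5, -0.33 for Homer1 and -0.29 for Grm5. They were -0.23 for Kcnh7, -0.28 for Kcnt2, 0.17 for Cacnb3, -0.31 for Pclo, -0.33 for Ifit2, -0.16 for Dnajc3, 0.52 for Rps2, -0.36 for Tmem68, 0.38 for Gm11808 and -0.47 for Slc35a3. Each stayed on the same side of 0. Tmem72, at -1.73, was no longer called. On the FPKM scale (0.1 added), 27 of the named genes that were called in counts kept their direction but not their call, and 3 changed sign. Homer1 was at -0.19 there, Grm5 at -0.10, Calb1 at -0.03 and Atp1b2 at -0.01, none of them called. The median of all genes on that scale was 0.23. With thinned counts Ifit3 was at -0.74 and Ifit2 at -0.18, and neither was called.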

How the data were processed

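RNA-seq libraries of 36 hippocampi were deposited, of which the 12 of A/J and DBA/2J were compared. Per the file headers, the deposited tables give whole-number counts and FPKM for 37315 Ensembl genes. The submitters' notes list GRCm38 and, without roles, Cufflinks 2.1.1, DESeq2 1.8.1, TopHat2 2.0.13 and Trimmomatic 0.32. No label or header names the read counter, its strand setting or the annotation release, so antisense and overlapping genes are uncertain. GENCODE M21 held 35449 of the genes.

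Counts were filtered (minimum count 10, total 15), scaled by TMM and fitted with edgeR 4.0.16's quasi-likelihood test (R 4.3.3) over all 36 libraries, with 1 mean per strain and sex and Benjamini-Hochberg adjustment (threshold 0.05). Called means an adjusted p under 0.05. CPM are TMM-scaled and given as mean ± SD of 6 libraries. The SE of a log2 fold change is its size over the root of F. Alternatives were DESeq2 1.42.0, limma 3.58.1 on log2(FPKM + 0.1), other filters, thinned counts, a loess correction for GC content and length (span 0.5) and left-out libraries. The fit was tested on simulated counts with far fewer changed genes than were called here and no GC or length trend. That test does not cover such a trend.

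The members and gene lists were chosen with earlier results of these data known. Named genes were called, at 1 CPM or more and with libraries apart: up to 12 a direction by size, 8 by p at 30 CPM or more and 3 not protein coding. All known-variant genes, 2 to 4 genes per list by p, 6 for the interaction and 4 in each of 3 windows were added, called or not. Some genes that the rule named are not reported here. Intervals and limits cover counting error only.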

Additional observations from a re-analysis of the deposited data

Results flagged for a closer look

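Within the 6 libraries of a strain, 21 of 290 gene-by-strain groups examined (7.2%) had a lowest or highest library whose gap to the nearest of the others, divided by the range, was above Dixon's critical value of 0.625. Chance gives about 1 in 20 groups such a gap.

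DBA/2J male 1, which also stood apart on the first principal component, was the highest DBA/2J library for Lrrc17 (37.34 CPM, next 14.47), Aldoart1 (3.618) and Cox8a (158.5) and the lowest for Grm5 (415.7) and Nap1l5 (276.3). DBA/2J male 2 was the lowest for S100b (49.63) and the highest for Camk2b (1021). DBA/2J female 1 was the highest for Baiap2l1 (5.722) and Glo1 (195.6).

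A/J male 2 was the highest A/J library for Rpsa-ps5 (19.45), Cdh23 (2.487), Trem2 (10.48), Sod1 (93.96) and Rps28 (87.89). A/J male 3 was the highest for Gm22255 (14.05), Mpdz (61.81) and Trmt13 (7.766). A/J male 1 was the lowest for Baiap2l1 (21.35) and the highest for Gpr174 (7.71), and A/J female 2 the highest for Fscn2 (0.5575) and Calb2 (32.54). All values are CPM. Of these genes Fscn2 was not called.

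The strain difference differed between the sexes by the interaction test of edgeR for 6 named genes. These 6 were named for the smallest p-values in that test, so the call was a condition and not a result. Without A/J female replicate 1 the test called 5 genes in all, so not all 6 kept their call. The difference of females minus males (log2) was -1.135 for Dcaf1, -1.352 for Fndc1, -0.8071 for Trank1, -1.288 for Rreb1, -0.6111 for Zfp512b and -1.121 for Sfi1. For Fndc1, an extracellular matrix protein, the A/J females lay between 7.73 and 8.74 CPM and the DBA/2J females between 17.1 and 21.4, while the males of the strains overlapped.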

How the results depend on the processing

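The count of genes called ran from 8476 to 9500 when 1 library was left out (higher 4436 to 5177, lower 3955 to 4534), from 3588 to 5667 in males, from 5303 to 7324 in females and from 5 to 181 for the interaction. With counts thinned to the shallowest library 5207 genes were called (2691 higher, 2516 lower), 2265 in males, 3219 in females and 15 for the interaction. On the FPKM scale 9080 were higher and 1523 lower with 0.1 added, 8944 and 1580 with 1 added, and 8915 and 1465 with no filter, so that 85.6% of calls were higher against 51.7% in counts and 43.2% after the GC and length correction. Females gave 4225 without the 3 shallow DBA/2J libraries, which left 1 DBA/2J female, assumed to vary like the other groups. The interaction gave 221 with no filter, 258 with DESeq2, 737 with only the 12 libraries, 43, 66 and 35 on the FPKM scale (0.1 added, 1 added, no filter) and 0 without the shallow libraries. The cause was not tested. Of 143 named genes that were called, 102 kept their call under every alternative run.

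With the replicate number as a block, 9546 genes were called, of which 9454 were shared. Deviations from the group means were correlated between libraries of different groups. For same-numbered libraries the correlations ran from -0.344 to 0.091, and 0 of 18 passed 0.1. For libraries with other numbers they ran from -0.1605 to 0.3155, and 8 of 36 passed 0.1. Deviations within a group of 3 libraries sum to 0, so these pairs are not independent and cannot settle what the numbers mean. Whether the numbers mark a batch was not tested further.

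Values that changed sign, in log2, were these. With the GC and length correction, alone and with the replicate block, Tyr was at 0.1725 and 0.1713, Hdhd3 at -0.0893 and -0.0816, Entpd4 at -0.0584 and -0.0573, Fscn2 at -0.0777 and -0.1500, and Gabra2 at 0.2042 and 0.2046. With FPKM plus 0.1 (the same with no filter) and plus 1, Tyr was at 0.0452 and 0.0376, Kcnj9 at 0.1652 and 0.1563, Gabra2 at 0.1865 and 0.1839, Cyp2d22 at 0.1606 and 0.1390, Map3k15 at 0.0375 and 0.0101, Tspan2 at 0.3083 and 0.2967, Ifih1 at 0.1185 and 0.0560, Rreb1 at 0.2904 and 0.2717 and Zfp512b at 0.2106 and 0.1987. Gm14513 was at 0.3115 on FPKM with no filter. With thinned counts Gabra2 was at 0.0218, Cyp2d22 at 0.0089 and Zfp512b at 0.0246. Kcnj9 was at 0.0054 without the shallow libraries, Zfp512b at 0.0241 with no low-count filter, and, when 1 library was left out, Fscn2 between -0.0810 (without A/J female replicate 2) and 0.5610 and Zfp512b between -0.0344 and 0.0429.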
